A study of Mus musculus with 6 samples.

Results

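T cell receptor signalling genes are 34 mouse genes whose proteins carry, or damp, the signal from the antigen receptor of a T cell. They are 34 of the 21900 protein-coding genes of the RefSeq table used, and were taken by name. They comprise 5 kinases (Zap70, Txk, Fyn, Prkcq and Prkch), 7 adaptors (Lat, Lcp2, Grb2, Nck1, Nck2, Bcl10 and Malt1) and 8 effectors (Plcg1, Vav1, Vav2, Vav3, Sos1, Sos2, Rasgrp1 and Was). A further 11 are inhibitors (Csk, Pag1, Ptpn6, Ptpn22, Rasa2, Cbl, Cblb, Dgka, Dgkz, Ubash3a and Ubash3b), and the remaining 3, Ptprc, Themis and Rhoh, have roles of both kinds. Open chromatin at these genes was read from ATAC-seq, in which a transposase cuts accessible DNA, of naive CD4 T cells and of CD4 T cells cultured towards Th17 cells, the helper cells that make IL-17A and IL-17F. The naive cells, from C57BL/6 mice, were untreated. The cells at 48 h and 72 h came from the same strain and had been held on plate-bound antibodies to CD3ε and CD28 with TGF-β and IL-6. The cultured groups therefore received receptor stimulation and cytokines together, and the effects of the 2 cannot be told apart. The labels give 2 biological replicates for each condition, but 1 list of peaks per condition was analysed, so no difference between conditions has a replicate check and no p-value is given.

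When a receptor meets antigen, the kinases Lck and Fyn phosphorylate its CD3 chains, and Zap70 docks there and phosphorylates the scaffolds Lat and Lcp2. On these scaffolds, Plcg1 makes diacylglycerol and a calcium signal, Vav and Was proteins act on the actin skeleton, and Sos and Rasgrp1 load Ras with GTP. Prkcq signals through Bcl10 and Malt1 to NF-κB. Inhibitors act at each step: Csk and phosphatases restrain the kinases, Cbl proteins ubiquitinate them and their partners, diacylglycerol kinases remove diacylglycerol, and Rasa2 returns Ras to its inactive form.

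The naive list held 53259 peaks, the 48 h list 40624 and the 72 h list 53926, with median widths of 273, 234 and 239 bp. Joining all peaks with 1 bp or more in common gave 81315 regions. Regions overlapping a gene body, extended by 10 kb on each side, were counted at that gene. A region was called lost when the later list had no peak in it and the earlier list had one, and gained in the opposite case. A missing peak shows that no peak was listed there, not that the chromatin was closed, and in bulk cells fewer cells with an open site cannot be told apart from less open DNA per cell. T cell markers (Cd3e, Cd3d, Cd3g, Cd4 and Thy1) all had regions, with counts per gene adding up to 29, 23 and 22 in naive, 48 h and 72 h cells. A region within 10 kb of more than 1 of these genes is counted at each. Of the genes that mark Th17 cells, Il17a had 0, 3 and 5 regions and Il17f 0, 1 and 3. Of the markers of other cells, 3 of 4 B cell, 3 of 4 CD8 or NK and 1 of 4 myeloid genes had a region in some list. The single myeloid gene, Itgam, had 7, 1 and 1 regions, and Csf1r, Lyz2 and Adgre1 had none. The part of other cells in the results was not tested.

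Starts of transcription that were not shared by the 3 lists are shown first, because most starts of these genes were. RefSeq start windows (GRCm38.p6, 250 bases before to 50 bases after the start) were at hand for 31 of the 34 genes, in 47 windows. At 23 of these genes a peak of every list touched a window. The other 8 were the kinase gene Prkcq, the adaptor gene Lcp2, the exchange factor gene Vav2, the inhibitor genes Dgka, Ptpn6, Ubash3a and Ubash3b, and Ptprc. Windows are printed 5′ to 3′ on the strand of the gene, with the bases under a peak of at least 1 list in capitals. Prkcq (chr2:11172132-11172431, plus strand) had a naive peak only, Dgka (chr10:128743829-128744128, minus strand) a 72 h peak only. Ptpn6 (chr6:124738660-124738959, minus strand) had a naive peak under its first capitals and a separate 72 h peak under its last. Ubash3a (chr17:31207816-31208115, plus strand) had a 48 h peak under its first capitals and a separate naive peak under its last. Lcp2 (chr11:34046678-34046977, plus strand) had no peak of any list in this window. Themis (chr10:28668110-28668409, plus strand) and Sos2 (chr12:69681803-69682102, minus strand) stand for the starts that were in all 3 lists, the one with 1 CpG dinucleotide and the other with 54.
Prkcq: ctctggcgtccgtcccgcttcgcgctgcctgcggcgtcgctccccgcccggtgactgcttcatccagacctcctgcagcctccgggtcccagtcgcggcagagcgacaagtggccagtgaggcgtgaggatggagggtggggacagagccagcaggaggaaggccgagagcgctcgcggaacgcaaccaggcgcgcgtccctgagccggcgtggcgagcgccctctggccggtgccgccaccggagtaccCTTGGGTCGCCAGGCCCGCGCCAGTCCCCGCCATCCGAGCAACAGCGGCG
Dgka: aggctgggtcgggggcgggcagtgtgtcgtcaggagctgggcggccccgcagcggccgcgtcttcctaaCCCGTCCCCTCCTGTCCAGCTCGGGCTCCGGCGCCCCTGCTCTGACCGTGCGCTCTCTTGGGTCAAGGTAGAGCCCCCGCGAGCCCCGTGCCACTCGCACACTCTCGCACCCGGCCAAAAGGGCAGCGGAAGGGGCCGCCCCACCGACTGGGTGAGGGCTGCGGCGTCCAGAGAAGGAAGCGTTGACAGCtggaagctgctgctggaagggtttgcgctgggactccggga
Ptpn6: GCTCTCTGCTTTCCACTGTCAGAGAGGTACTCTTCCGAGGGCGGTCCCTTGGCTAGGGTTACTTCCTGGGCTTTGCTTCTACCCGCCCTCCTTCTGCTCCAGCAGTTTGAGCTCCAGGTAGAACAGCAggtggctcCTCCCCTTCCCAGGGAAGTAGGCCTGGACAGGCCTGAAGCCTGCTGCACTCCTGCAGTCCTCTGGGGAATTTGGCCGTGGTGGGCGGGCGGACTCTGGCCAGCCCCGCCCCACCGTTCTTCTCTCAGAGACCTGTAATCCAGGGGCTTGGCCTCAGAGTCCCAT
Ubash3a: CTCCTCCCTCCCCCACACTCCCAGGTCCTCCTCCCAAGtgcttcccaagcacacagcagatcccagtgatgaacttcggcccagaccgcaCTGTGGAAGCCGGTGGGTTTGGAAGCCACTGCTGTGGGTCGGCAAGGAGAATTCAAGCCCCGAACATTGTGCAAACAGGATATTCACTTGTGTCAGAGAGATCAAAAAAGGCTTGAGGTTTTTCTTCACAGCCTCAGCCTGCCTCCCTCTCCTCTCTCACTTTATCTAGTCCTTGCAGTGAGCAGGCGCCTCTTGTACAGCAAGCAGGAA
Lcp2: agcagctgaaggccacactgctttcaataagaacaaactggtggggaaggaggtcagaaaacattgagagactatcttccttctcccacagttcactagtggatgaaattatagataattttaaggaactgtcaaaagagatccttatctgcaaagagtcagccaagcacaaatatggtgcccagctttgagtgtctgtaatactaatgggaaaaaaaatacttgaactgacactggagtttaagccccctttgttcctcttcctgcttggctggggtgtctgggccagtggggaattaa
Themis: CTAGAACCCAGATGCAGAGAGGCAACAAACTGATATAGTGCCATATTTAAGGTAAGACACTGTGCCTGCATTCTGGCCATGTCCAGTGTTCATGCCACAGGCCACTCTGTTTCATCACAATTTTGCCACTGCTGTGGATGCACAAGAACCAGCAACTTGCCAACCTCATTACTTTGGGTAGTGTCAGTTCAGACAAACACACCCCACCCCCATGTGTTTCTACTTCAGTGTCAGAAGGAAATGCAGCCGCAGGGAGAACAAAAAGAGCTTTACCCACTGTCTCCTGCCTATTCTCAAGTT
Sos2: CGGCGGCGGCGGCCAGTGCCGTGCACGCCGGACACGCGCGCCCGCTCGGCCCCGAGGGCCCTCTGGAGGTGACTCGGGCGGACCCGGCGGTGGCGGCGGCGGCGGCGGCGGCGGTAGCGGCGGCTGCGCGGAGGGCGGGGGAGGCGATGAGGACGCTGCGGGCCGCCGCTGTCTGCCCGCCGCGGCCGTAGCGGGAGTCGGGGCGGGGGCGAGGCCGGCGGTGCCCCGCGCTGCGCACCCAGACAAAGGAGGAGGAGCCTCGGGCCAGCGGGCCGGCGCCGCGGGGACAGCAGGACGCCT

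Each of the 34 genes had at least 1 region, and together they held 526, none of them shared between 2 of the genes. The lists held 371 of these regions in naive cells, 218 at 48 h and 286 at 72 h. The largest group, 200 regions (38.0%), was listed in naive cells only, against 27.6% of the 60899 regions at other protein-coding genes. A second group of 120 regions (22.8%) was in all 3 lists, against 28.9% at other genes. At 72 h only there were 74 regions (14.1%, against 17.3%), and 58 were listed at both later times without a naive peak (11.0%, against 12.2%). The smaller groups were 34 regions shared by the naive and 72 h lists, 17 shared by the naive and 48 h lists, and 23 particular to the 48 h list. Summed peak width at the 34 genes was 126 kb in naive cells, 69.2 kb at 48 h and 92 kb at 72 h. The 48 h and 72 h sums were 55.0% and 73.1% of the naive one, and at other protein-coding genes 65.1% and 89.2%.

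At 48 h, 234 of the 371 naive regions at the 34 genes were lost, and 81 of the 218 regions listed at 48 h were gained. The lost share was 63.1% (exact 95% interval 57.9 to 68.0%), where 55.9% of all naive regions were lost. The gained share was 37.2% (30.7 to 43.9%), beside 38.8% of all 48 h regions. Among genes, 28 of the 34 had more lost than gained regions, 4 had more gained than lost and 2 had equal numbers. Of all genes with a region, 49.2% had more lost regions and 19.5% more gained ones. The 34 genes have many regions, with a median of 12.5 and at least 5, against a median of 4 over all genes with a region. Among the 6312 genes with 5 or more regions, 68.6% had more lost and 18.6% more gained regions. That cut is the smallest count among the 34 genes, and the set was not matched to their median of 12.5. The median balance, gained minus lost regions per gene, was -3 for the 34 genes and 0 for all genes.

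At 72 h, 217 of the 371 naive regions were lost and 132 of the 286 regions listed at 72 h were gained. That is a lost share of 58.5% (53.3 to 63.6%) and a gained share of 46.2% (40.3 to 52.1%), where both shares were 49.2% over all regions. Among the 34 genes, 23 had more lost regions, 7 had more gained regions and 4 had equal numbers. Over all genes with a region, 36.7% had more lost and 33.9% more gained regions, and among genes with 5 or more regions 49.6% and 35.2%. The median balance was -2 for the 34 genes and 0 for all genes. Both comparisons share the naive list, so they do not stand for separate evidence.

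**Figure D1:**
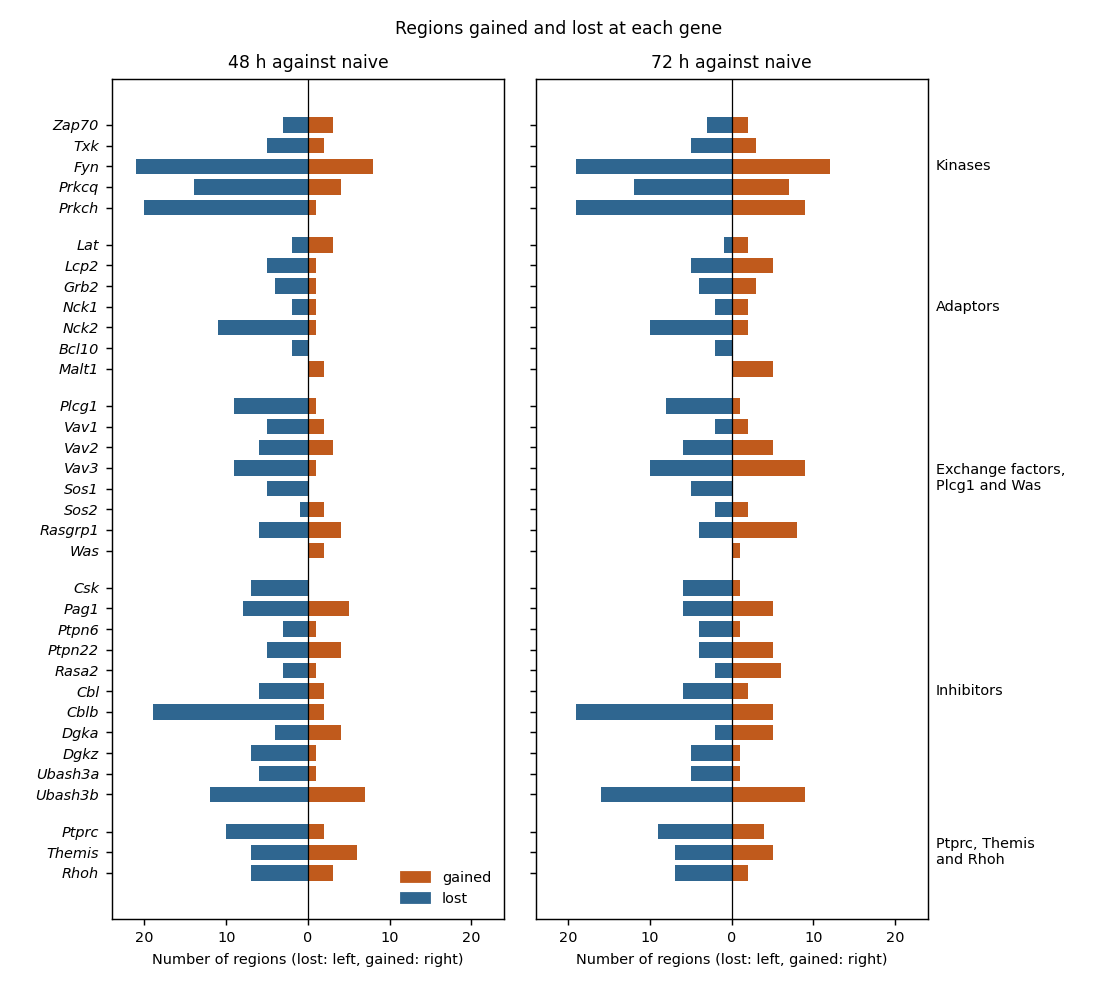
Regions gained and lost at each of the 34 genes, grouped by role, at 48 h and at 72 h against naive cells. Bars to the right of 0 count gained regions and bars to the left count lost ones. Lost bars are the longer ones at 28 genes at 48 h and at 23 genes at 72 h, and Malt1 and Was have no lost bar at either time.

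Against 48 h, 108 of the 286 regions listed at 72 h (37.8%) were gained, where 39.4% of all 72 h regions were. Of these 108, 34 had also been listed in naive cells and 74 were in the 72 h list only. Of the 218 regions listed at 48 h, 40 (18.3%, 13.4 to 24.1%) were lost, beside 15.9% of all 48 h regions. More gained than lost regions were found at 23 genes and more lost at 7, where 48.8% and 11.1% of all genes with a region, and 67.3% and 11.9% of those with 5 or more, stood so.

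Naive regions at the 34 genes were missing from the later lists more often than naive regions at other protein-coding genes. At 48 h the lost share was 63.1% at the 34 genes and 52.2% at the others, a difference of 10.9 percentage points (Newcombe 95% interval 5.84 to 15.7). At 72 h it was 58.5% at the 34 genes and 45.8% at the others, a difference of 12.7 points (7.62 to 17.7). Within each class of place, given below, the difference was smaller at both times. The gained shares differed by 2.50 points at 48 h (-3.67 to 9.11) and by 0.926 points at 72 h (-4.78 to 6.74), intervals that hold 0. The intervals cover the counting of regions within these lists, not the spread between cultures, and neighbouring regions of a gene are not independent.

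Narrow naive regions were lost more often than wide ones. Regions at a start of any protein-coding gene were 8.56% of those at the 34 genes and 15.9% of those at other genes, a difference of -7.33 points (-9.45 to -4.61). Only starts with a RefSeq window could be counted here. By the summed width of the naive peaks, 77.4% of the 137 naive regions of up to 203 bp were lost at 72 h, against 75% at other genes. In the middle class, up to 427 bp, 60.4% of 144 were lost, against 50.9% at other genes. Above 427 bp, 26.7% of 90 were lost (17.9 to 37.0%), against 11.5% at other genes. By place, 63.3% of the 289 regions inside a gene and away from a start were lost (57.5 to 68.9%), against 57.5% elsewhere. At a start the shares were 15.4% of 39 (5.86 to 30.5%) at the 34 genes and 5.14% at other genes. Among wide regions away from a start, 38.7% of 62 were lost at the 34 genes (26.6 to 51.9%), against 23.1% of 6363. The differences at 72 h were 2.36 points in the narrow class (-5.37 to 8.61), 9.56 in the middle class (1.36 to 17.2) and 15.2 in the wide class (7.12 to 25.2), and 15.6 points among wide regions away from a start (4.40 to 28.1). At 48 h they were 4.69 points in the narrow class (-2.12 to 9.54), 4.55 in the middle class (-3.61 to 12.0) and 10.8 in the wide class (2.75 to 20.8). Among wide regions away from a start at 48 h, 38.7% were lost at the 34 genes and 31.3% at other genes, and the interval of the difference, -3.78 to 19.9 points, holds 0.

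**Figure D2:**
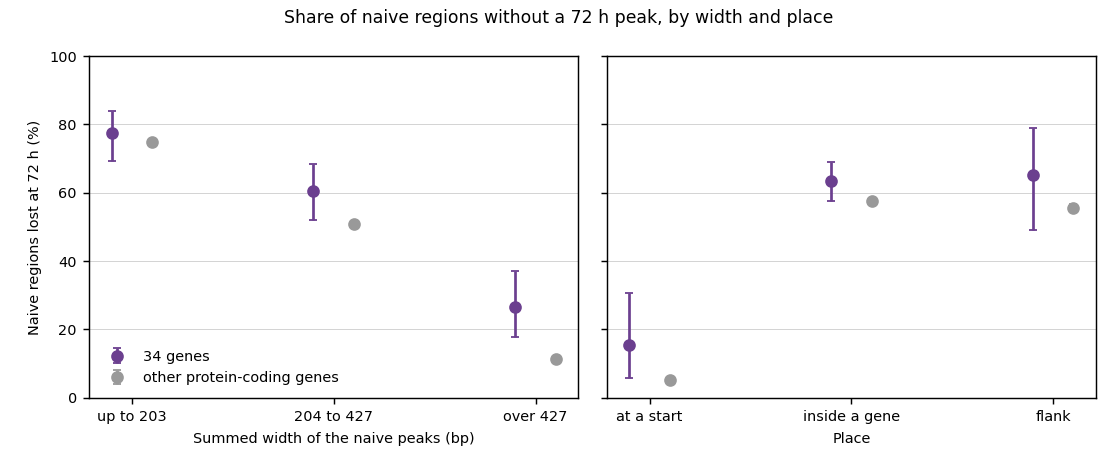
Percent of naive regions without a 72 h peak, by the summed width of the naive peaks in bp and by place, for the 34 genes and for other protein-coding genes. Points are shares and bars exact 95% intervals. Among regions over 427 bp the 34 genes stand at 26.7% and other genes at 11.5%.

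Some of the lost regions had a peak of the other list close by. Of the 217 naive regions lost at 72 h, 40 (18.4%) had a 72 h peak less than 500 bp away, and at other genes 17.3% did. Of the 132 regions gained at 72 h, 20 (15.2%) had a naive peak that close, against 9.62% at other genes. With peaks less than 500 bp apart joined into 1 region, a choice made after the data were seen, the lost share at 72 h was 50.3%, against 39.8% at other genes, and the difference was 10.5 points.

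Among the kinases, Zap70, which binds the phosphorylated receptor chains, kept a nearly level count, with 5 regions in naive cells, 5 at 48 h and 4 at 72 h. Its regions were not the same ones: 2 were in all 3 lists, 2 had been gained at 72 h and 3 lost. Txk, a Tec family kinase of resting T cells, had 6, 3 and 4 regions, of which 1 was in all 3 lists. Every kinase gene had more lost than gained regions at 72 h. The 92 naive regions of the 5 kinase genes compare with 47 regions at 48 h and 67 at 72 h. Of the naive regions, 58 (63.0%, 52.3 to 72.9%) were lost at 72 h, beside 49.2% over all regions and 45.8% at other protein-coding genes.

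Fyn, the Src family kinase that acts beside Lck, had 26 regions in naive cells, 13 at 48 h and 19 at 72 h. At 72 h it had 12 gained regions and 19 lost ones. The region over its start, chr10:39369448-39370669, was in all 3 lists with a 72 h score of 343. A region 7337 bp beyond the end of the gene, chr10:39572718-39573119, was absent in naive cells and scored 72 at 48 h and 174 at 72 h. Scores are the authors' own, run from 30 upwards, and are given within a list only, where the median was 69 at 48 h and 76 at 72 h. The naive list has none.

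Prkcq, the protein kinase C of the receptor contact zone, had 21, 11 and 16 regions in naive, 48 h and 72 h cells. It had 7 gained and 12 lost regions at 72 h. Its start, printed above, lay at the edge of a naive peak of 215 bp, chr2:11172382-11172596, that no later peak overlapped. Prkch, a related kinase with the most regions of the 34 genes, had 34, 15 and 24. Of its 43 regions, 14 were in all 3 lists, 19 were in naive cells only and 8 at 72 h only. The widest naive-only regions among the kinases were 2 inside Prkch, chr12:73656536-73657118 with 583 bp and chr12:73625375-73625935 with 561 bp. In the other direction, the region chr12:73725844-73726546 inside Prkch was absent in naive cells and scored 96 at 48 h and 186 at 72 h. In the flank of Prkch, chr12:73779259-73779800 held a naive peak of 103 bp and a 72 h peak of 501 bp with a score of 246.

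At the adaptor genes 24 of 48 naive regions were lost at 72 h, an interval of 35.2 to 64.8% that holds the 49.2% over all regions and the 63.0% at the kinases. Lat, the membrane scaffold, had 4, 5 and 5 regions in naive, 48 h and 72 h cells, with 2 gained and 1 lost at 72 h. Lcp2, the cytosolic scaffold that binds Lat through Gads, had 8, 4 and 8. Its counts in naive cells and at 72 h were equal although 5 regions had been gained and 5 lost. One of the gained ones, chr11:34101586-34102150, lay 9305 bp beyond the end of the gene and scored 49 at 48 h and 102 at 72 h. Grb2, which brings Sos to Lat, had 9, 6 and 8 regions, and 5 of them were in all 3 lists.

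The paired adaptors Nck1 and Nck2, which link the receptor to the actin skeleton, differed in number. Nck1 had 3 regions in naive cells, 2 at 48 h and 3 at 72 h. Nck2 had 17, 7 and 9, with 2 gained and 10 lost at 72 h. The widest naive-only regions among the adaptors were both inside Nck2, chr1:43456832-43457356 with 525 bp and chr1:43542299-43542818 with 520 bp.

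Bcl10 and Malt1 act as partners in the complex that leads to NF-κB, and their region counts ran in opposite directions. Bcl10 had 6, 4 and 4 regions in naive, 48 h and 72 h cells, with none gained and 2 lost at either time. Malt1, which is also a protease, had 1, 3 and 6, with 5 gained and none lost at 72 h. The single naive region of Malt1, over 1 end of the gene, was in all 3 lists. The gained Malt1 region 94 bp outside the other end scored 175 at 48 h and 231 at 72 h, the highest 72 h score of any region of the adaptors absent in naive cells.

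The effector genes held 69 regions in naive cells, 43 at 48 h and 60 at 72 h, and 37 of the naive regions (53.6%) were lost at 72 h. The interval of 41.2 to 65.7% holds the 49.2% over all regions and the 45.8% at other genes. Plcg1, the phospholipase that makes diacylglycerol, had 12, 4 and 5 regions, with 1 gained and 8 lost at 72 h. Its start and 2 sites inside the gene were in all 3 lists. Vav1, the exchange factor of blood cells that activates small GTPases, had 9, 6 and 9 regions, with 2 gained and 2 lost. Vav2 had 8, 5 and 7 and Vav3 had 13, 5 and 12. At Vav3 9 regions were gained at 72 h and 10 lost, and only 3 of the 23 were in all 3 lists.

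Of the Ras exchange factors, Sos1 had 10, 5 and 5 regions in naive, 48 h and 72 h cells, and Sos2 had 5, 6 and 5. None was gained at Sos1 at either time, and the same number, 5, had been lost at both. Its widest naive-only region was chr17:80441543-80442052, with 510 bp. Rasgrp1, which diacylglycerol recruits, had 9, 7 and 13 regions, with 8 gained and 4 lost at 72 h. The region chr2:117320247-117320581 inside Rasgrp1 was listed at 72 h only, with a score of 138. A second, chr2:117328388-117328997, held a naive peak of 134 bp and a 72 h peak of 599 bp with a score of 172. Was, which sets off actin branching, had 3, 5 and 4 regions and no lost one at either time.

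Among the inhibitors, Cblb, an E3 ubiquitin ligase that sets the need for CD28 costimulation, had the most regions. It had 27 regions in naive cells, 10 at 48 h and 13 at 72 h, with 5 gained and 19 lost at 72 h. Its start region, chr16:52031039-52032195, was in all 3 lists and scored 260 at 48 h and 433 at 72 h. The naive-only region chr16:52129407-52130056, inside the gene, was with 650 bp the widest such region at the inhibitors. The related ligase Cbl had 7, 3 and 3 regions, with 2 gained and 6 lost at 72 h. At both ligase genes lost regions outnumbered gained ones, and a start was listed throughout.

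Csk, the kinase that phosphorylates the inhibitory tyrosine of Src family kinases, had 11, 4 and 6 regions in naive, 48 h and 72 h cells. At 72 h 1 region was gained and 6 lost. Pag1, the membrane protein that holds Csk, had 11, 8 and 10, with 5 gained and 6 lost. The phosphatase gene Ptpn6 had 9, 7 and 6 regions, with 1 gained and 4 lost. Ptpn22, a phosphatase that partners with Csk, had 9, 8 and 10, with 5 gained and 4 lost. The gained region chr3:103870398-103870711 inside Ptpn22 scored 143 at 48 h and 170 at 72 h. One of its RefSeq starts, at position 103859795 of chromosome 3, had a naive peak only, while the other, at 103860277, was in all 3 lists.

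Rasa2, the Ras inactivator, had 6 regions in naive cells, 4 at 48 h and 10 at 72 h. With 6 gained and 2 lost regions at 72 h it had the most positive balance of the inhibitors. Dgka, a diacylglycerol kinase, had 5, 5 and 8, with 5 gained and 2 lost. Its printed start carried a 72 h peak of 190 bp, chr10:128743870-128744059, with a score of 39, near the floor of that list. Dgkz, the second diacylglycerol kinase, had 13, 7 and 9, with 1 gained and 5 lost. Its gained region, chr2:91947755-91948134, scored 117 at 48 h and 203 at 72 h. Its naive-only region chr2:91975856-91976470, with 615 bp, lay over the 5′ end of the gene at 91976443, which has no start window. The region lay within 10 kb of Creb3l1 as well.

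The STS phosphatase genes Ubash3a and Ubash3b, whose products act on Zap70, both had more lost than gained regions at 72 h. Ubash3a had 7, 2 and 3 regions in naive, 48 h and 72 h cells, with 1 gained and 5 lost. Ubash3b had 20, 15 and 13, with 9 gained and 16 lost, and none of its 2 start windows was touched by a peak.

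**Figure D3:**
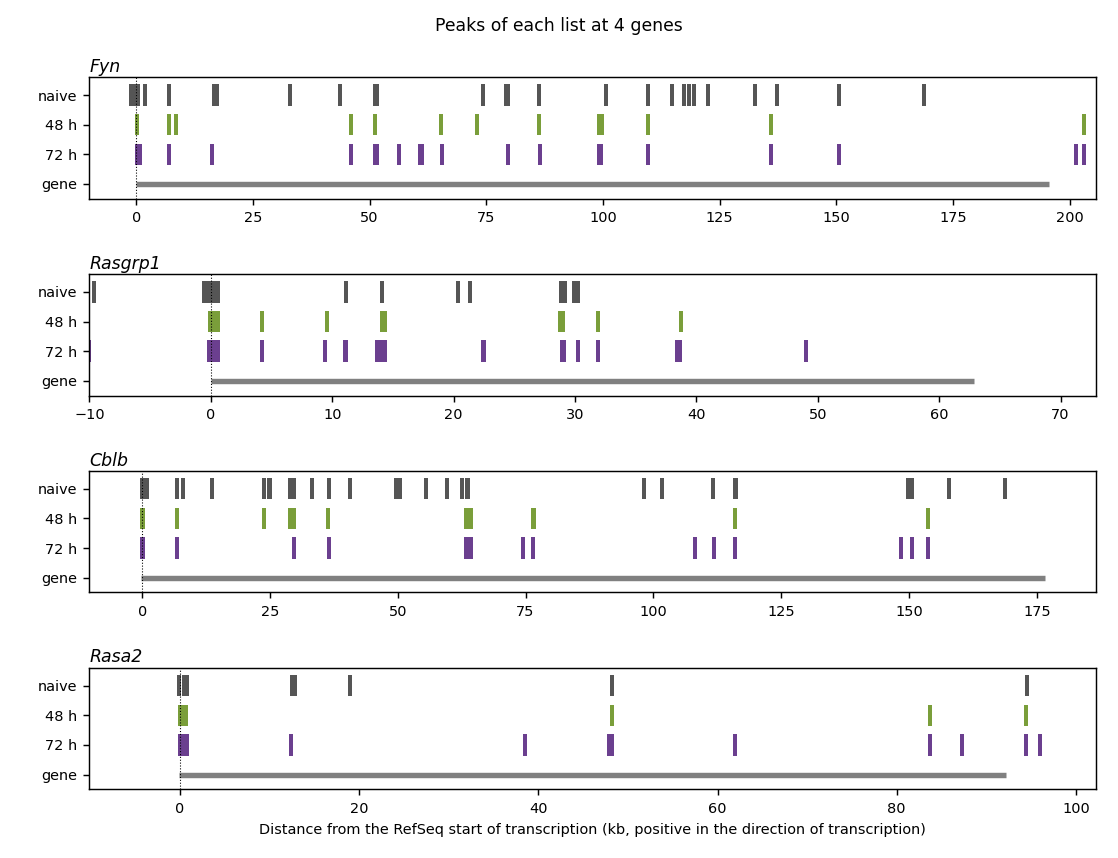
Peaks of the naive, 48 h and 72 h lists (rows) along Fyn, Rasgrp1, Cblb and Rasa2, with the gene body as a grey bar and the distance from the RefSeq start in kb. Narrow peaks are drawn at a minimum width to be visible. The rows draw single peaks, and some regions hold several of them. Counted as regions, Fyn and Cblb had 26 and 27 in naive cells against 19 and 13 at 72 h. Rasgrp1 and Rasa2 had 13 and 10 regions at 72 h against 9 and 6 in naive cells.

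Ptprc, which encodes the phosphatase CD45, can both activate and restrain Src family kinases, and had 16, 8 and 11 regions in naive, 48 h and 72 h cells. The region chr1:138166215-138166524 was absent in naive cells and scored 65 at 48 h and 97 at 72 h. Themis, a regulator of receptor signal strength in thymocytes, had 9, 8 and 7, with 5 gained and 7 lost at 72 h. Its gained region chr10:28816224-28816494 scored 173 at 48 h and 110 at 72 h. Rhoh, an atypical GTPase that aids the recruitment of Zap70, had 12, 8 and 7, with 2 gained and 7 lost. Lost regions outnumbered gained ones at each of the 3 at both times.

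No difference between kinases and adaptors and inhibitors was resolved in these lists. The 12 kinase and adaptor genes held 140 regions in naive cells, 78 at 48 h and 110 at 72 h, and the 11 inhibitor genes held 125, 73 and 91. At 48 h the lost share was 63.6% at kinases and adaptors and 64.0% at inhibitors, a difference of -0.429 points (-11.8 to 11.1). The gained share was 34.6% at kinases and adaptors and 38.4% at inhibitors, a difference of -3.74 points (-18.7 to 11.4). At 72 h the lost share was 58.6% (49.9 to 66.8%) at kinases and adaptors and 60.0% (50.9 to 68.7%) at inhibitors, a difference of -1.43 points (-13.1 to 10.3). The gained share was 47.3% at kinases and adaptors and 45.1% at inhibitors, a difference of 2.22 points. Between 48 h and 72 h, 14.1% of the 48 h regions were lost at kinases and adaptors and 23.3% at inhibitors, a difference of -9.19 points (-21.6 to 3.30). Every one of these intervals holds 0, and all are wide enough to hold differences of 10 points or more in at least 1 direction. By gene, 8 of 12 kinase and adaptor genes and 8 of 11 inhibitor genes had more lost than gained regions at 72 h.

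**Figure D4:**
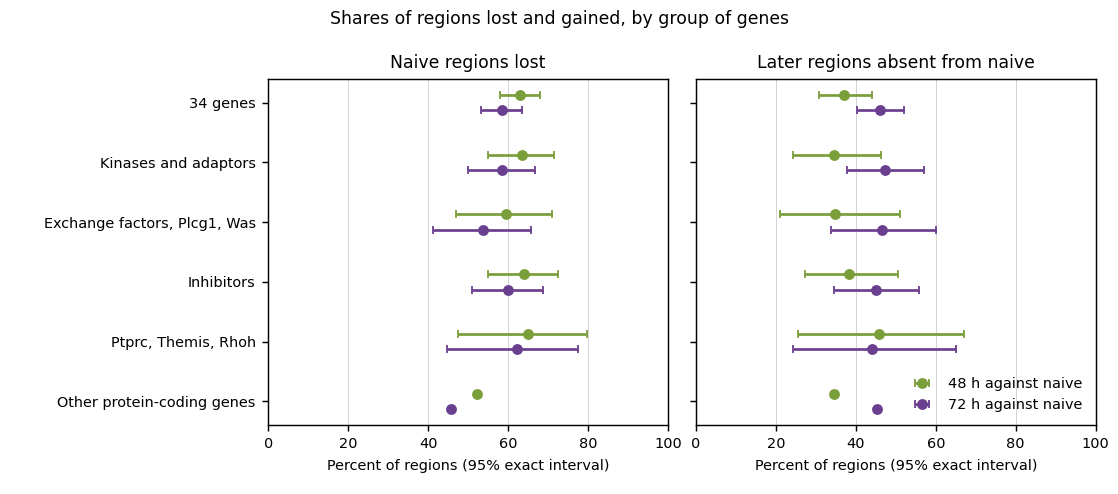
Percent of naive regions lost (left) and of later regions absent from naive cells (right) by role, at 48 h and 72 h, with exact 95% intervals. The points for kinases and adaptors and for inhibitors lie close together, at 58.6% and 60.0% lost at 72 h, and other protein-coding genes at 45.8%.

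Most genes had turnover in both directions. At 72 h, 30 of the 34 genes had at least 1 gained and 1 lost region, 2 (Bcl10 and Sos1) had no gained region and 2 (Malt1 and Was) no lost one. Longer genes had more naive regions, with a Spearman rank correlation of 0.567 over the 34 genes, given as a description. Of the 526 regions, 34 touched a start window of their own gene, 394 others overlapped their gene body and the rest lay in the flanks. Prkch, Malt1 and Pag1 had no start window, so any region over their start is among the 394. The table holds no exons, so exonic and intronic regions were not told apart. Another protein-coding gene lay within 10 kb of 96 of them.

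The 120 regions in all 3 lists were narrower in the later lists. Their median summed peak width was 459.5 bp in naive cells, 347.5 bp at 48 h and 411.5 bp at 72 h. The median ratio to the naive width was 0.768 at 48 h and 0.882 at 72 h, and at other protein-coding genes 0.759 and 0.886. Regions in all 3 lists had a median 72 h score of 109 at the 34 genes, against 141 at other genes. Regions gained by 48 h and still listed at 72 h had 77.0, against 90.0 at other genes, and regions listed at 72 h only 48.5, against 50. The 72 h-only regions of the 34 genes thus lay near the first quartile of that list, a score of 48.

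The 23 of 31 genes with a start in all 3 lists made up 74.2% (55.4 to 88.1%), against 47.5% of the 17492 genes with a window. No list touched the start of 3 of the 31 genes, Lcp2, Vav2 and Ubash3b, whereas this held for 43.4% of all genes with a window. Peaks lay just outside windows of these 3 genes. Past the Lcp2 window, which ends at 34046977, a 72 h peak began at 34047053 and a naive peak at 34047069. Peaks of all 3 lists ended at 27427235 to 27427294 near the Vav2 window, which begins at 27427559. Others of all 3 lists ended at 41157794 to 41157823 near a Ubash3b window that begins at 41158013. Peaks so close to a window were not counted for other genes. By role, the starts of 8 of 10 kinase and adaptor genes, 7 of 8 effector genes, 6 of 10 inhibitor genes and 2 of 3 mixed genes were in all 3 lists. The start windows of Ptprc were touched by naive and 48 h peaks, and no 72 h peak reached them. A 72 h peak, chr1:138175588-138175745, lay inside the gene, between the window edge at 138175555 and the 5′ end of the gene at 138175756. That end has no window of its own. The 72 h peak overlapped the naive peak chr1:138175544-138175733, which did touch the start window. The second start of Grb2, at position 115699928 of chromosome 11, was touched by peaks of the later lists alone.

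The start windows differed in base content. The 26 windows touched by all 3 lists had a median GC content of 65.3% and a median of 25 CpG dinucleotides, with a range of 1 to 54. The 12 windows in no list had 48.8% and 5, with a range of 0 to 13. The printed Prkcq window, with 73.0% GC and 37 CpG, was rich in both and yet had a naive peak only. The Themis window, with 47.3% GC and 1 CpG, was poor in both and was in all 3 lists. The GC box GGGCGG, searched on both strands, was found in 46.8% of the 47 windows and in 46.2% of all 21263 RefSeq windows. It was in 16 of the 26 windows touched by all lists and in 2 of the 12 touched by none. In the Ptpn6 window it matched 5 times, each time under a peak. The motif TGTGGT, named after RUNX, was in 12.8% of the 47 windows and 15% of all, TATAAA in 10.6% and 12.6%, CCGGAAG (ETS) in 2.13% and 11.6%, and TGANTCA (AP-1) in 2.13% and 6.99%. The ETS and AP-1 letters were each in 1 of the 47 windows. The second Ptpn22 window, at 103860277, held TGTGGT 3 times, all under a peak. A match is a match of letters and not a bound site.

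A second list of 30 genes of the same pathway, outside the 34, had 224 regions in naive cells, 128 at 48 h and 173 at 72 h. At 48 h lost regions outnumbered gained ones at 24 of them and the reverse held at 1, beside 49.2% and 19.5% of all genes with a region. Among genes with 5 or more regions the shares were 68.6% and 18.6%, although some of the 30 genes had fewer. At 72 h the numbers were 18 and 5, with 7 equal, beside 36.7% and 33.9% of all genes and 49.6% and 35.2% of those with 5 or more regions. Their lost share at 48 h was 60.3% (53.5 to 66.7%), beside 55.9% of all naive regions. Their lost share at 72 h was 49.6% (42.8 to 56.3%), near the 49.2% over all regions. Their gained share at 72 h was 34.7% (27.6 to 42.3%), beside 49.2% over all regions. Among the most unequal towards loss at 72 h were Fyb, a scaffold that binds Lcp2, with 3 gained and 15 lost regions, and Grap2, which encodes Gads, with 5 and 10. The most unequal towards gain were Sh2d2a, Rasal3, Map3k7, Traf6 and Ikbkb, each with 1 more gained than lost region. Lck, the kinase that starts the cascade, had 8, 5 and 8 regions in naive, 48 h and 72 h cells, with 2 gained and 2 lost at 72 h.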

How the data were processed

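The data are 1 peak list per condition, with positions, and for 48 h and 72 h a whole-number score per peak as the authors deposited it, on a scale that no header states. Per the submitters' processing notes, the tools were deepTools, MACS2 2.2.6, SAMtools 1.9 and Bowtie2 2.3.4.1, and the builds GRCm38 and mm10, names of 1 mouse assembly. Neither the calling threshold nor duplicate handling, Tn5 shift or pooling of libraries is given in the sources used here. Depth is unknown because the deposited lists hold no reads or signal, so no count test was run.

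Peaks sharing at least 1 bp were merged with Python 3.11.15, pandas 2.3.3 and NumPy 2.4.6, and regions were assigned to RefSeq GRCm38.p6 genes with 10 kb flanks. In the naive list, 1 blank line was dropped. Coordinates are 1-based. Shares have exact Clopper-Pearson 95% intervals (SciPy 1.17.1) and differences of shares Newcombe intervals, covering counting error only. The merging and counting were tested on simulated data. The members, roles and second list were chosen with earlier results of these data known. Single regions named are, per role, those absent from naive cells with the highest 72 h score and the widest in naive cells only, with start regions; the peaks beyond this rule, for example of 103 and 134 bp at Prkch and Rasgrp1, were chosen after their values were seen. Of the second list, the 3 most unequal genes in each direction at 72 h are named, with ties, and Lck, except for 1 gene that is not reported here. Alternatives for flank, peak width, score, overlap, joining distance, the gene with most regions and the make-up of the roles were tried.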

Additional observations from a re-analysis of the deposited data

How the results depend on the processing

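Of 44 alternative values of the shares at the 34 genes, 35 stayed within the interval of the reported share and 9 did not. With the 40624 widest peaks of each list, the lost share at 48 h was 55.8%, against 42.8% at other genes. Between 48 h and 72 h the lost share was then 27.5%, against 23.3%, and the gained share 26.9%, against 26.7%. With the peaks of each list from its median width upwards, the lost share at 72 h was 52.7%, against 37.4% at other genes. With scores at or above the median, the lost share between 48 h and 72 h was 25.9%, against 12.7% at other genes, so that their difference was 13.2 points in place of 3.52. With peaks less than 500 bp apart joined, chosen after the data were seen, the lost share at 48 h was 57.6%, against 46.2% at other genes. At 72 h it was 50.3%, against 39.8%, and between 48 h and 72 h 13.4%, against 12.2%. The gained share at 72 h was 40.1%, against 42.4% at other genes. The cause of each shift was not tested, but all 4 settings drop or join peaks by construction. The difference in lost share between the 34 genes and other genes ranged from 7.56 points (50 kb flanks) to 15.4 points at 72 h, and from 6.48 to 17.5 points at 48 h. Of 36 alternative differences between kinases and adaptors and inhibitors, 35 stayed within the reported interval. The other, the gained share at 48 h in peaks from the median width upwards, was 12.0 points (-10.4 to 32.2). The sign differed from the reported one in 10 of the 36. Leaving out Prkch, for the shares at the 34 genes, and Prkch and Cblb together, for the role differences, kept the values within the reported intervals. No paired analysis was possible because each condition has 1 peak list and the replicate numbers of the labels belong to no list.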
